A study of Caenorhabditis elegans with 6 samples.

Results

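The ETS genes of *Caenorhabditis elegans* were described across 6 microarrays that compared 2 deletion mutants of one of them, *ets-4*, with wild-type worms. The set was taken by gene symbol and held 10 genes: *ets-4*, *ets-3*, *ets-5*, *ets-6*, *ets-7*, *ets-8*, *ets-9*, *ets-10*, *lin-1* and *ast-1*. Of these, 9 had a current symbol in the reference table and a probe on the array, with 10 probes in all because *ast-1* had a pair of them, while *ets-3* had no entry under that symbol and was not analysed here. The array carried 18874 named genes, of which 14761 were bright enough to be tested, and 7 of the 10 ETS genes were among them.

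Total RNA came from whole worms at the late L4 larval stage. Each array held wild-type N2 RNA in the Cy3 channel and mutant RNA in the Cy5 channel, with 3 arrays for *ets-4(ok165)* and 3 for *ets-4(uz1)*, and N2 was the background to which both mutants had been outcrossed. Both alleles are deletions in *ets-4*. By the study's description *ok165* leaves neither of the conserved domains of the protein encoded. *uz1* deletes the 3′ untranslated region and most of the sequence for the ETS domain, and spares that for the PNT domain. By the study's RT-PCR in mixed-stage worms, full-length *ets-4* mRNA was absent in *ok165* and a shortened one was found in *uz1*. The mutants are called by their alleles, *ok165* and *uz1*, from here on. Each genotype is a single mutant line, neither carries a rescuing transgene, and the labels name no treatment. The dyes were never swapped, so a dye effect on a probe adds to every ratio and drops out when 1 strain's ratio is subtracted from the other's. Between 68.5% and 72.9% of the noncontrol spots were well above background in Cy3 and between 72.8% and 85.4% in Cy5. By the file headers, arrays numbered 2 of both strains had the same scan date, as did those numbered 3. Blocks by scan, used below, group the arrays by this date. The arrays numbered 1 shared a slide. The other *ok165* arrays lay together on another slide and the other *uz1* arrays on yet another, so that slide and strain cannot be told apart for these 4 arrays.

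ETS factors are transcription factors that bind DNA through a winged helix-turn-helix, the ETS domain, at sites with a GGA core, and some also carry a PNT domain, which binds other proteins. In worms *ets-4* is known for limiting adult lifespan and for a part in the regrowth of cut axons, *lin-1* for holding back vulval fates until Ras signaling reaches it, *ast-1* for the identity of dopamine neurons and for axon guidance, and *ets-5* for the identity of the BAG neurons, which sense carbon dioxide. In whole-worm RNA, fewer cells of a type and less RNA per cell cannot be told apart.

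*ets-4* (F22A3.1) was the targeted gene and fell in both mutants, the only one of the 7 tested ETS genes that did. Its probe was placed by the array's annotation at chrX:6521746-6521859 on the plus strand, in a build not given in the sources used here. The probe covers 114 bases of the genome, where 85.1% of the probes with a position cover 60. Whether it lies within either deletion was not determined.

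On the 3 *ok165* arrays the wild-type Cy3 signal of *ets-4* was 607, 672 and 425 units, and the mutant Cy5 signal was 50.4, 96.3 and 64.4 units. On the 3 *uz1* arrays the wild-type signal was 764, 750 and 386 units, and the mutant signal was 84.5, 88.5 and 53.9 units. Every wild-type value lay above every mutant value. The mutant signal nevertheless cleared the background on 5 of the 6 arrays, the exception being *ok165* array number 1.

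As log2 ratios of mutant over wild type, *ets-4* measured -3.59, -2.80 and -2.72 on the *ok165* arrays, a mean of -3.04 ± 0.48 (SD, n = 3). The ratios were -3.18, -3.09 and -2.84 on the *uz1* arrays, a mean of -3.03 ± 0.17 (SD, n = 3). The mutants thus carried 12.2% of the wild-type signal in each strain, 8.22-fold lower in *ok165* and 8.19-fold lower in *uz1*. The mutant spot was above background on 2 of the 3 *ok165* arrays, and without the array where it was not, the *ok165* ratio was -2.76. *ets-4* had the 7th lowest mean ratio of the 14761 genes tested in *ok165* and the 19th lowest in *uz1*.

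In limma's moderated test, adjusted over all genes tested by the Benjamini-Hochberg method, the fall of *ets-4* had a 95% interval of -3.52 to -2.55 and an adjusted p of 0.00648 in *ok165*. In *uz1* the interval was -3.52 to -2.55 and the limma adjusted p was 0.00142. Rank Products, the test named in the study's methods, also placed *ets-4* among the lower genes in both strains. The call in *ok165* was lost without its array numbered 3 (limma adjusted p = 0.0623), with no filter on dim probes (adjusted p = 0.1004) and when that strain was fitted alone (adjusted p = 0.127). With a background model that adds a constant to each channel (normexp, then loess), the log2 ratio shrank to -1.41 in *ok165* and -1.39 in *uz1*, and both calls held.

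The strains did not differ detectably in *ets-4* signal. The *uz1* ratio minus the *ok165* ratio was 0.41, -0.28 and -0.12 for arrays numbered 1, 2 and 3. The limma estimate of this difference was 0.01 on the log2 scale, with a 95% interval of -0.68 to 0.69 and an adjusted p of 0.998. The interval therefore leaves room for either strain to carry less of the probed sequence.

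**Figure D1:**
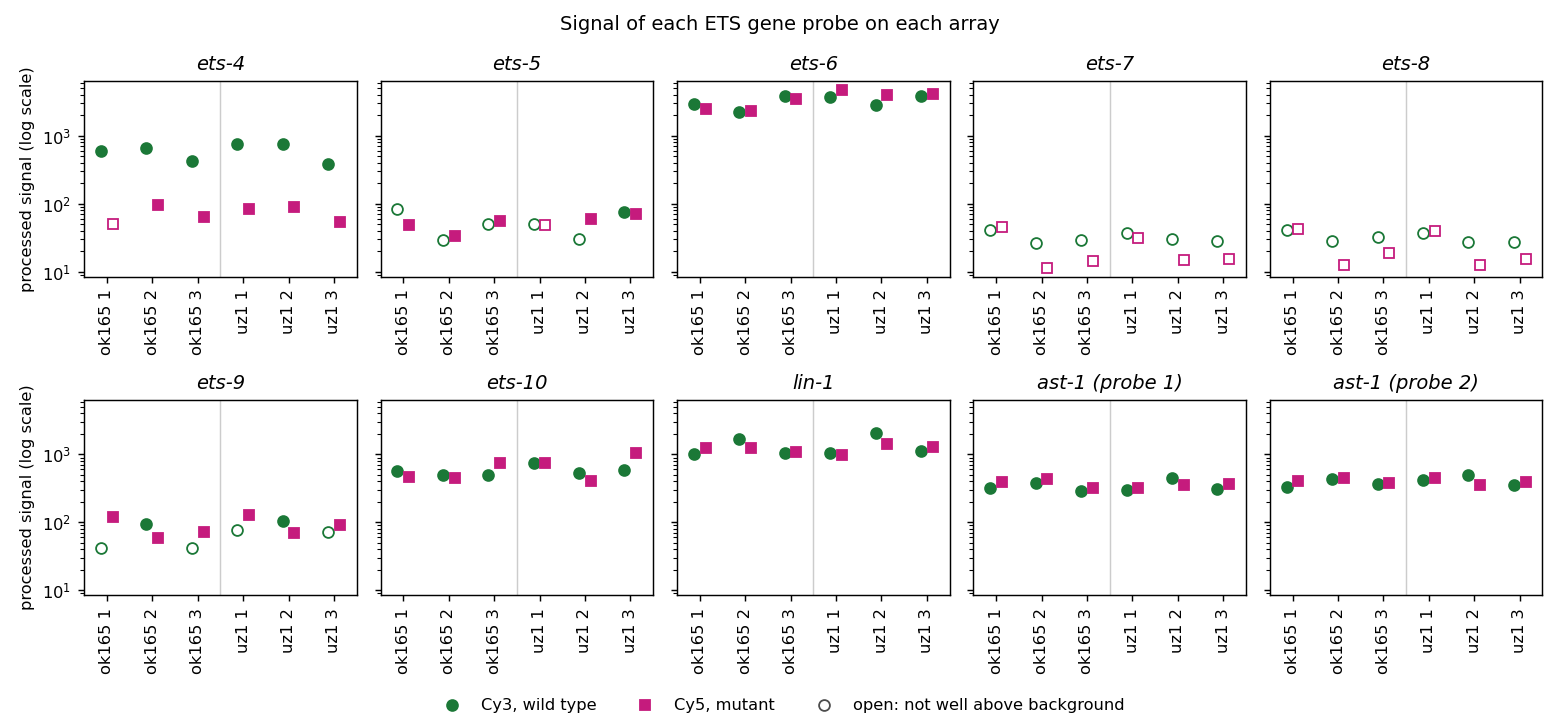
Processed Cy3 (wild type, circles) and Cy5 (mutant, squares) signal in scanner units, on a log axis, of each ETS gene probe on the 3 *ok165* and 3 *uz1* arrays, with open symbols where the spot was not well above background. The Cy5 signal of *ets-4* lies below its Cy3 signal on all 6 arrays, and *ets-7* and *ets-8* have open symbols throughout.

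Of the 7 ETS genes tested, 1 passed the adjusted threshold of 0.05 in *ok165*, 1 in *uz1* and 0 in the difference between the strains, and in both strains that gene was *ets-4*. Over all genes tested, 0.0948% passed in *ok165*, 3.54% in *uz1* and 0.163% in the difference. At an unadjusted p under 0.05 the count of ETS genes was still 1 in each strain, against 8.14% and 19.6% of all genes, and 0 in the difference. By Rank Products, which was run on unfiltered genes, 1 ETS gene passed in each strain, against 0.662% and 2.77% of genes. Adding the array number to the limma fit as a block also left 1 ETS gene called in each strain, where 0.343% and 15.6% of genes passed. Such a block takes the variation between array numbers out of the error. For a strain against wild type, its p therefore does not measure the spread of the ratio over the repeats, here and below.

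The other 6 tested ETS genes had a median log2 ratio of 0.01 in *ok165* and 0.15 in *uz1*, with estimates from -0.14 to 0.53 and from -0.12 to 0.30. The median over all genes tested was -0.02 and 0.03. None of the 6 was called. The ends of the *ok165* range are *ets-5* and *ets-9*, whose wild-type spots were well above background on 1 and 2 of the 6 arrays. The intervals of these genes do not say how large a change was missed, since their wild-type level was mostly not measured. For the others the intervals do say so.

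**Figure D2:**
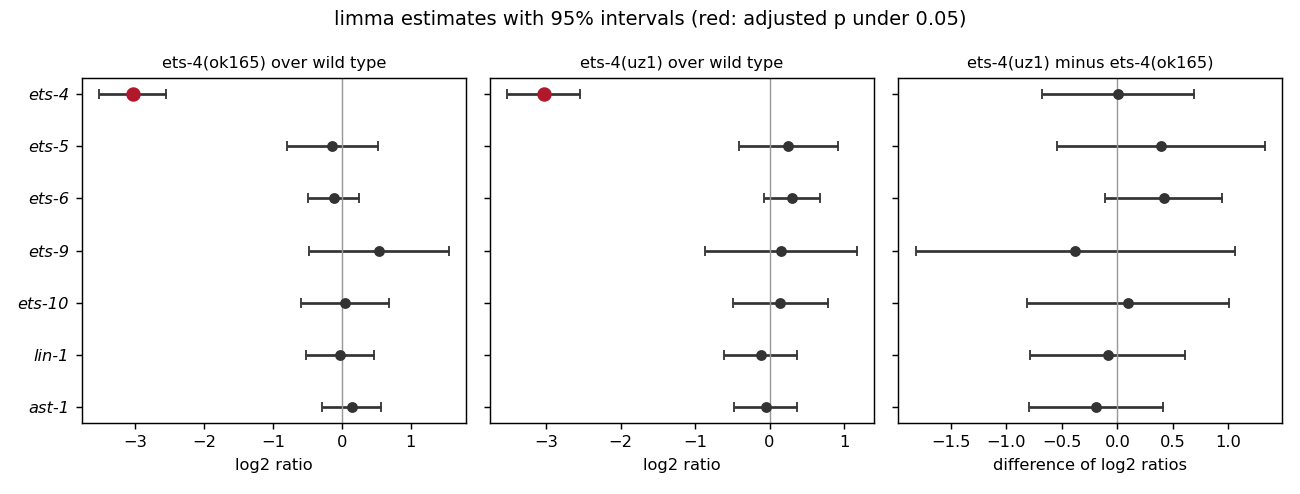
limma estimates (points) and 95% intervals (bars) of the log2 ratio of mutant over wild type in each strain, and of the difference between the strains, for the 7 tested ETS genes. *ets-4* is near -3.04 in *ok165* and -3.03 in *uz1*, the intervals of the other genes cross 0, and *ets-9* has the widest interval.

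*lin-1* (C37F5.1, chrIV:2276071-2276130, minus strand), the target of Ras signaling, was well above background in both channels on all 6 arrays. Its wild-type signal ran from 1018 to 2039 units, highest on the arrays numbered 2. The log2 ratios were 0.28, -0.44 and 0.07 on the *ok165* arrays and -0.06, -0.52 and 0.22 on the *uz1* arrays. The ratios of the strains overlapped, and the array numbered 2 was the lowest in both. The limma interval was -0.52 to 0.46 in *ok165* (adjusted p = 0.980) and -0.61 to 0.37 in *uz1* (adjusted p = 0.786).

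*ast-1* (T08H4.3) was read by a pair of probes on the minus strand, at chrII:4127913-4127972 and chrII:4128133-4128192, and the brighter one was tested. Its ratios were 0.32, 0.06 and 0.05 in *ok165* and 0.13, -0.47 and 0.19 in *uz1*. The other probe gave 0.30, 0.22 and 0.12 in *ok165* and 0.11, -0.34 and 0.28 in *uz1*. Both probes were above 0 on all 3 *ok165* arrays and below 0 on the second *uz1* array alone. The limma interval of the tested probe was -0.28 to 0.57 in *ok165* (adjusted p = 0.872) and -0.47 to 0.37 in *uz1* (adjusted p = 0.899).

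*ets-5* (C42D8.4, chrX:5079747-5079806, minus strand), the BAG neuron factor, was close to background. Its wild-type spot cleared the background on 1 of the 6 arrays, *uz1* array number 3, and its mutant spot on 5. The ratios were -0.76, 0.17 and 0.18 in *ok165* and -0.06, 0.95 and -0.13 in *uz1*, with no order between the strains. In *ok165* no array measured the wild-type level above background, so no fold is given there. The limma interval in *uz1* was -0.41 to 0.92 (adjusted p = 0.647).

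*ets-6* (F19F10.10, chrV:7580185-7580244, minus strand) was bright in both channels, with a wild-type signal from 2227 to 3882 units. Its ratios were 0.32, 0.48 and 0.08 on the *uz1* arrays, all above 0, and -0.29, 0.08 and -0.15 on the *ok165* arrays. At each array number the *uz1* ratio was the higher one, by 0.62, 0.40 and 0.23. This did not pass the test: the limma estimate of the difference was 0.42, with an interval of -0.11 to 0.94 and an adjusted p of 0.817. The intervals against wild type, -0.49 to 0.26 in *ok165* and -0.08 to 0.67 in *uz1* (limma adjusted p = 0.878 and 0.355), were the narrowest of the 7 genes.

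*ets-9* (C52B9.2, chrX:4282784-4282843, plus strand) had the widest spread. Its ratios were 1.53, -0.72 and 0.80 on the *ok165* arrays and 0.74, -0.62 and 0.35 on the *uz1* arrays. In both strains the array numbered 1 was the highest and the array numbered 2 the lowest and the only one below 0. The wild-type signal was 41.6, 95.5 and 41.8 units on the *ok165* arrays and 76.7, 106.0 and 72.6 units on the *uz1* arrays. It was well above background on the arrays numbered 2 and on no other, whereas the mutant signal was so on all 6. The limma interval was -0.48 to 1.55 in *ok165* (adjusted p = 0.777) and -0.86 to 1.17 in *uz1* (adjusted p = 0.867).

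*ets-10* (C52B9.11, chrX:4284775-4284834, plus strand) has its probe 1.99 kb from that of *ets-9*. Its ratios were -0.29, -0.13 and 0.57 in *ok165* and -0.02, -0.39 and 0.84 in *uz1*. Here the array numbered 3 was the highest and the only one above 0 in both strains, a pattern that *ets-9* did not have. The limma interval was -0.60 to 0.69 in *ok165* (adjusted p = 0.977) and -0.50 to 0.79 in *uz1* (adjusted p = 0.799).

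*ets-7* (F19F10.5, chrV:7560392-7560451, minus strand) and *ets-8* (C50A2.4, chrIV:1159722-1159781, minus strand) were not well above background in either channel on any array. The wild-type signal of *ets-7* ran from 26.2 to 41.5 units and that of *ets-8* from 27.3 to 41.0 units. The probe of *ets-7* lies 19.8 kb from that of *ets-6*, which was bright on every array. A change in *ets-7* or *ets-8* was not detectable here, and neither was tested.

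**Figure D3:**
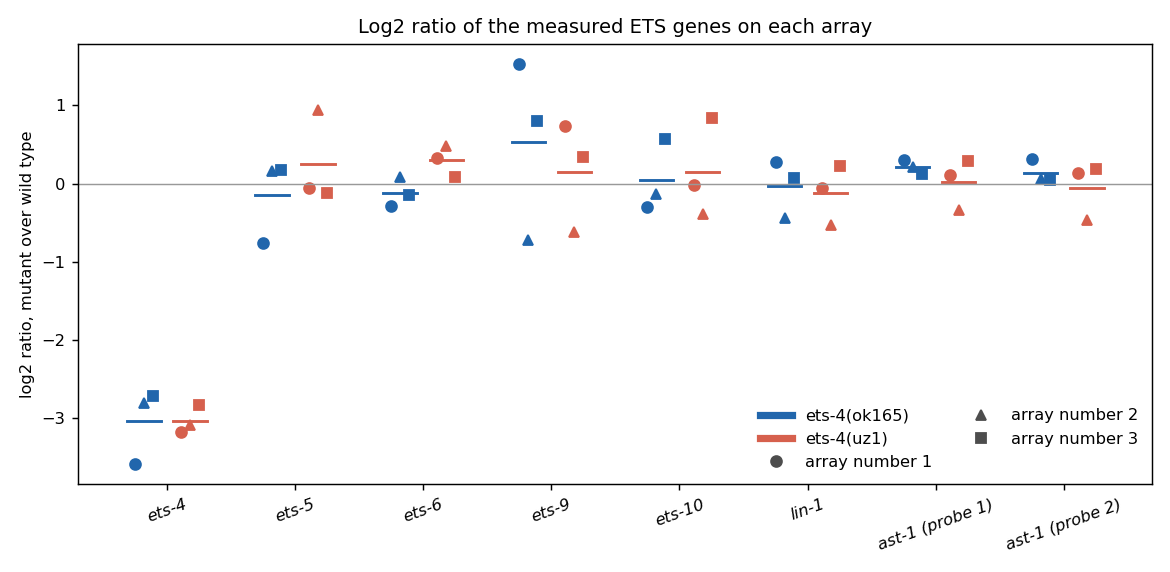
Log2 ratio of mutant over wild type on each array for the 8 probes of the 7 tested ETS genes, coloured by strain, with the marker shape giving the array number and a short line at the mean of 3 arrays. All 6 ratios of *ets-4* lie between -3.59 and -2.72, and in both strains array number 2 is the only one below 0 for *ets-9* and array number 3 the only one above 0 for *ets-10*.

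The genes on each side of *ets-4* were then read, taking the order of genes from the WBcel235 annotation. To the left of it *ttr-35* (F22A3.2), a transthyretin-like gene, had ratios of -0.13, -0.78 and -0.10 in *ok165* and -0.84, -1.05 and -0.14 in *uz1*. All 6 were below 0, and the limma adjusted p was 0.743 in *ok165* and 0.172 in *uz1*, and blocking on the array number brought the latter to 0.0363. *glr-8* (F22A3.3), a glutamate receptor gene, and *cdf-1* (C15B12.7), a zinc transporter gene, had mean ratios of -0.44 and 0.10 in *ok165* and -0.05 and -0.19 in *uz1*. The smallest limma adjusted p among these 4 values was 0.5998.

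To the right of *ets-4* the nearest probe was one the array assigns to F22A3.4 and describes as resembling the human homeodomain protein PBX2, a name that has no entry of its own in the reference table. The probe may therefore read RNA of *ceh-60*, the gene annotated at this place, which was not determined. It lies 2.57 kb from the *ets-4* probe, on the opposite strand. Its wild-type signal was 1880, 2362 and 1282 units on the *ok165* arrays and 2183, 2606 and 1300 units on the *uz1* arrays. The mutant signal was 541, 419 and 771 units in *ok165* and 586, 521 and 476 units in *uz1*, below every wild-type value.

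The F22A3.4 ratios were -1.80, -2.50 and -0.73 in *ok165* and -1.90, -2.32 and -1.45 in *uz1*. By limma the mean of -1.89 in *uz1* passed the test (interval -2.67 to -1.11, adjusted p = 0.0310), and the mean of -1.68 in *ok165* did not (interval -2.45 to -0.90, adjusted p = 0.313, or 0.0415 when blocked on the array number). Rank Products, in contrast, placed F22A3.4 among the lower genes in both strains (estimated share of false positives 0.0191 and 0.0124). The strains differed by -0.21 (interval -1.31 to 0.88, limma adjusted p = 0.921). The call in *uz1* was lost without any single one of its own arrays (limma adjusted p = 0.0915 to 0.155), with no filter on dim probes (0.107) and with normexp and loess (0.0560). *ceh-60* (F22A3.5) is a PBX-type homeobox gene whose span overlaps the end of *ets-4* in the reference annotation. The probe that the array assigns to it lay 4.83 kb away and stayed near background in both channels on all 6 arrays. The study's own qRT-PCR, made in adults, reported *ceh-60* as lower in both mutants. From these arrays the study also counted F22A3.4 among the genes altered in both.

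Farther to the right, *ilys-5* (F22A3.6), an invertebrate-type lysozyme gene, was not called by limma in either strain. It passed Rank Products narrowly in *ok165* (estimated share of false positives 0.0996). Its mean ratios in *ok165* and *uz1* were -1.15 and -0.43 on the brighter of its probes and -0.71 and -0.998 on the other. On the arrays numbered 1 the brighter probe measured -0.342 and 0.196, the same values as *asp-1*, an intestine marker elsewhere in the genome. Those arrays alone held saturated spots, 128 and 89. Whether the *ilys-5* probe was among them was not determined. T14E8.2 was higher in *ok165*, with ratios of 1.98, 3.14 and 1.95, and measured 0.00, 0.43 and 0.00 in *uz1*. No wild-type spot of it was well above background. The mutant spot was so on all 3 *ok165* arrays and on 1 of 3 *uz1* arrays. It therefore passed the brightness filter only through the strain where it was high. The difference in *ok165* is given as at least 2.87-fold higher, a bound on the processed signals (limma adjusted p = 0.0350, which is not independent of that filter). The difference between the strains had a limma adjusted p of 0.120, or 0.0380 when blocked on the array number, and the call in *ok165* was lost when any single array of either strain was left out (0.0630 to 0.138), and also with no filter (0.260), with ratios of exactly 0 left out (0.0853), with the strain fitted alone (0.303) and with normexp and loess (0.205), where the log2 ratio was 0.785 in place of 2.36. With scan as a random block the difference between the strains passed (0.00305).

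**Figure D4:**
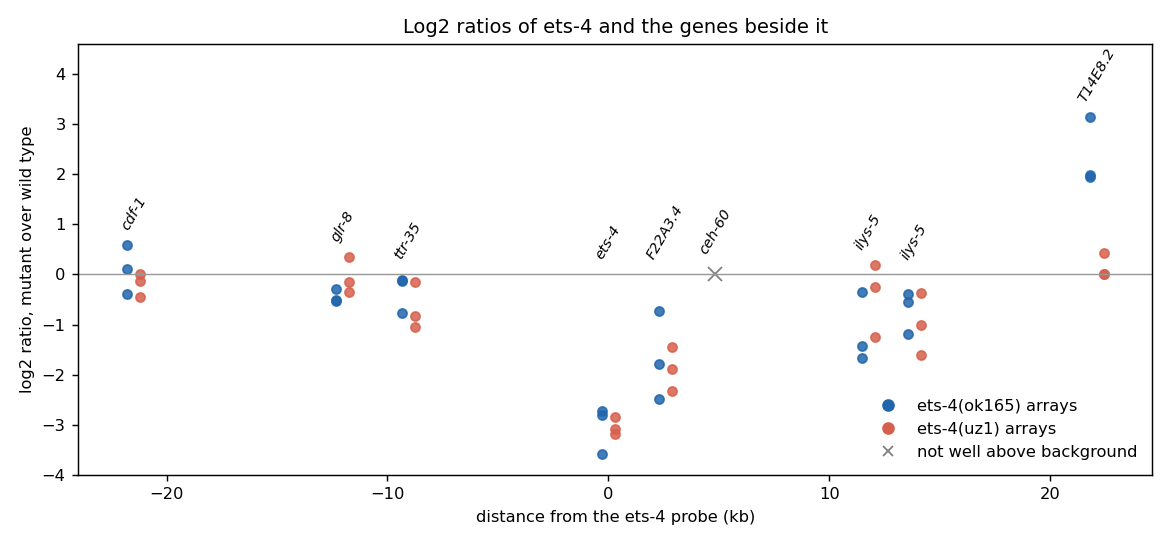
Log2 ratio of mutant over wild type on each array against the distance in kb from the *ets-4* probe, for *ets-4* and the genes beside it on chromosome X, with a cross for *ceh-60*, which was not well above background. *ets-4* and F22A3.4 lie below 0 on all 6 arrays, and T14E8.2 has its *ok165* ratios between 1.95 and 3.14.

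Genes that are known to act with these factors were counted next. Of 10 genes linked to *ets-4* in axon regrowth, RNA decay or lifespan, 9 were tested, and 0 passed limma's adjusted test in any comparison or Rank Products in either strain. At an unadjusted p under 0.05 there was 1 in *ok165*, 2 in *uz1* and 1 in the difference between them, against 8.14%, 19.6% and 6.75% of all genes. Their median ratio was 0.08 in *ok165* and -0.02 in *uz1*. *rege-1*, whose RNase destroys *ets-4* mRNA, had ratios of 0.66, -0.71 and -0.01 in *ok165* and 0.31, -1.12 and -0.28 in *uz1*. *svh-2*, a receptor kinase gene transcribed by ETS-4 after axon injury, had ratios of 0.31, -0.13 and 0.18 in *ok165* and 0.22, -0.37 and 0.31 in *uz1*. Both genes overlapped between the strains and straddled 0. *svh-1*, which encodes the growth factor for that receptor, had ratios of 0.11, -0.17 and -0.19 in *ok165* and 0.95, 0.29 and 1.18 in *uz1*. The difference between the strains in *svh-1* did not pass (limma adjusted p = 0.570, or 0.174 when blocked on the array number). Against wild type its limma adjusted p in *uz1* was 0.0852, or 0.0345 when blocked on the array number. That blocked fit also called *kgb-1*, a JNK-type kinase gene, at a ratio of -0.89 in *uz1* (limma adjusted p = 0.0137, against 0.0606 without the block). *kgb-1* was singled out after its values were seen, and 15.6% of all genes passed in *uz1* under the block.

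Of 14 genes of the Ras pathway that ends at LIN-1, 12 were tested and 0 passed by limma (0 also at an unadjusted p under 0.05) or Rank Products, with a median ratio of 0.04 in *ok165* and -0.09 in *uz1*. *lin-3*, which encodes the EGF-like ligand, had ratios of -0.54, 0.19 and -0.25 in *ok165* and 0.32, 0.44 and -0.01 in *uz1*. Of 7 genes of dopamine neurons, all were tested and 0 passed by limma (0 in *ok165* and 2 in *uz1* at an unadjusted p under 0.05, against 8.14% and 19.6% of all genes) or Rank Products, with median ratios of 0.14 and -0.17. Only 4 of the 7 were well above background in wild type on all 6 arrays. *cat-2*, *cat-1* and *ceh-43* had no such wild-type spot and entered the test through mutant spots alone. *cat-4* had a value on 1 *uz1* array only (ratio 0.60). Under the block 1 gene of the Ras list and 1 of the dopamine list passed in *uz1*, where 15.6% of all genes did. They were *mek-2* (the MAP kinase kinase, ratio -0.56) and *bas-1* (the aromatic amino acid decarboxylase, ratio -0.88), both of which were singled out after their values were seen.

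Of 8 genes of BAG neurons, all were tested, and 1 was higher in *uz1*, where 3.54% of all genes were called by limma. This was *glb-5*, a globin gene of the oxygen and carbon dioxide response, with ratios of 1.36, 1.58 and 2.23 in *uz1* and -0.24, 0.60 and 0.31 in *ok165*. No wild-type spot of it was well above background. It entered the test through its mutant spots alone, on 5 arrays, with *uz1* arrays among them. The difference in *uz1* is given as at least 2.37-fold higher (limma adjusted p = 0.0160, which is not independent of that filter). The difference between the strains did not pass (limma adjusted p = 0.246, or 0.0201 with scan as a random block). Without any single *uz1* array the call was lost (0.0684 to 0.0785), as it was with no filter (0.0650) and with normexp and loess (0.0536). With normexp and loess the log2 ratio was 0.478 in place of 1.72. The bound is of the processed signals and was not met there. The other 7 genes of the list did not pass in either strain. Among them *gcy-31* had no wild-type spot well above background, and *gcy-9* had 2 of 6.

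The genes whose 6 ratios lay closest to those of *ets-4*, by the root mean square difference over the arrays, were *vit-3*, *vit-4* and *vit-5*, at 0.64, 0.70 and 0.79 on the log2 scale. They encode yolk proteins made in the intestine, and their sequences are so alike that the probes may read each other's RNA. *vit-3* measured -2.54, -2.12 and -1.82 in *ok165* and -3.06, -3.10 and -3.01 in *uz1*. All 6 ratios of *vit-3* were far below 0, as were those of *ets-4*, and the *vit-3* ratios were lower in *uz1* than in *ok165*, where *ets-4* showed no such order. The difference between the strains did not pass for *vit-3* (limma estimate -0.90, interval -1.48 to -0.31, adjusted p = 0.436).

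Marker genes were measured to check the tissue. All of the intestine (6), epidermis (6), body wall muscle (4), pharynx (4), neuron (6), sperm (4) and adult cuticle (2) markers on the array were well above background in Cy3 on all 6 arrays. The intestine markers, from one of the tissues that express *ets-4*, had median ratios of -0.08 in *ok165* and -0.46 in *uz1*. Of them 0 of 6 were called in either strain by limma (0 also at an unadjusted p under 0.05) or Rank Products. Under the block 1, *elt-7*, was called in *uz1*, where 15.6% of all genes passed. Its *uz1* ratios were uneven, at -0.24, -2.08 and -0.12. The summed mutant signal of the intestine markers was between 0.72 and 1.05 times the wild-type sum on the *ok165* arrays and between 0.51 and 0.99 times on the *uz1* arrays. These sums rest mostly on *asp-1* and *act-5*. Their mean wild-type signal on the *ok165* arrays was 655150 and 320400 units, against 1209 for *elt-7*. Whether *asp-1* was saturated on the arrays numbered 1 was not determined. In *uz1* the adult collagen gene *col-19* was lower (ratio -3.25, limma adjusted p = 0.00747). *dpy-7*, a collagen gene among the epidermis markers, was higher (ratio 1.63, limma adjusted p = 0.0320). Neither was called in *ok165*, and the difference between the strains did not pass for either (0.182 and 0.803). The other adult cuticle marker, *col-7*, was not called in either strain. Its ratios were -0.35, 0.36 and -2.30 in *uz1* and 0.04, 0.66 and 0.35 in *ok165*. Over the 6 arrays the wild-type signal ran from 30612 to 561402 units for *col-7* and from 22921 to 246535 units for *col-19*. The 6 epidermis markers had a median ratio of 0.70 in *uz1*. Of them 1 was called by limma, 4 had an unadjusted p under 0.05 and 2 passed under the block, against 3.54%, 19.6% and 15.6% of all genes. In *ok165* 2 had an unadjusted p under 0.05, against 8.14%. Their summed mutant signal was 1.58 to 2.41 times the wild-type sum on the *uz1* arrays, against 1.003 to 1.465 in *ok165*. This sum rests mostly on *rol-6* and *dpy-7*, with a mean wild-type signal of 117451 and 18442 units on the *uz1* arrays. The 4 body wall muscle markers had a median of 0.42 in *uz1* and a summed signal of 1.336 to 1.605 times the wild-type sum. Of them 0 were called, 2 had an unadjusted p under 0.05 and 2 passed under the block, against 19.6% and 15.6% of all genes for the last 2 counts. The 4 pharynx markers had a median of 0.68 in *ok165*, with 0 called (2 at an unadjusted p under 0.05, against 8.14% of all genes) and a summed signal of 1.205 to 2.341 times the wild-type sum. The part of these tissues or of stage in the values of the ETS genes was not tested.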

How the data were processed

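The 2-colour Agilent arrays were read from the authors' scanner files, made with Feature Extraction 8.5.1.1 (first array of each strain) or 9.1.3.1. The deposited log10 ratios of Cy5 over Cy3, background-subtracted and lowess-normalized by the authors, were multiplied by log2 of 10. The deposited processed intensities gave the signals in scanner units, the deposited flags (a 0 or 1 score per spot) gave well above background and outliers, and the authors' series table of log2 ratios served as an alternative. Genes were tested when at least 3 of 6 arrays had Cy3 or Cy5 well above background, by the brightest probe. limma 3.58.1 (R 4.3.3) fitted a mean per strain over all 6 arrays, with 4 residual and 3.19 prior degrees of freedom, and an adjusted p under 0.05 was called. The median 95% interval reached 0.51 on either side in *ok165* and 0.50 in *uz1*. The study's methods describe 3 independent repeats. Whether arrays of 1 number shared wild-type RNA is not given in the sources used here. The array numbers in the titles paired the samples, since deviations of same-numbered arrays correlated at 0.51, 0.69 and 0.29, so a fit with the number as a block was also run. For a strain against wild type, that fit leaves the spread between array numbers out of the error. Rank Products used 100 permutations and a share of false positives under 0.1. A bound ("at least") compares the bright channel's mean with, per array, the higher of the lowest signal well above background and the dim spot's own, and without dye swaps it is open to dye bias. The fit was tested on simulated data. Sequence names were matched to symbols through the WBcel235 table (18121 of 18874 genes), and *opt-2* and *mdt-23* of the lists had no match. Named genes were the members, the 3 nearest genes with a probe on each side of *ets-4*, listed partner genes that passed or came first in their list, and the 3 genes nearest in pattern. The members and lists were chosen with earlier results of these data known. Leaving out each array, slide and scan blocks, other filters, probes and normalizations were tried. No sequence is printed, since probe sequences were not analysed here.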

Additional observations from a re-analysis of the deposited data

Results flagged for a closer look

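1 value stood apart from the rest of its group. The wild-type Cy3 signal of T14E8.2 was 86.1 units on *ok165* array number 1 and between 25.0 and 38.3 units on the other 5 arrays, so that its gap to the nearest array was 0.655 of the whole range on the log2 scale. None of these spots was well above background. Chance singles out about 1 in 20 groups tested in this way, and the probes of the ETS genes, of the genes beside *ets-4* and of the 3 genes nearest to it in pattern were all examined.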

How the results depend on the processing

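The fall of *ets-4* kept its direction under every alternative, with limma adjusted p between 0.00490 and 0.127 in *ok165* and between 8.42e-04 and 0.0253 in *uz1*. Its call in *ok165* was lost with no filter on dim probes (log2 ratio -3.04) and with the strain fitted alone (-3.04), and the count of ETS genes called there became 0 in both. Leaving out 1 array gave *ets-4* ratios of -3.20 to -2.76 in *ok165* and -3.13 to -2.96 in *uz1*, and 0 to 1 ETS genes called in *ok165*, the loss being without its array numbered 3. The cause of the lost calls was not tested, beyond the smaller number of arrays or the larger number of genes.

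Counts over all genes moved more. In *ok165* 14 genes passed, against 50 with the replicate block, 1 with no filter, 1 when fitted alone, 9 with normexp and loess, 125 by Rank Products and 1 to 11 with an array left out (3, 5 and 1 without *ok165* array numbers 1, 2 and 3, and 8 and 9 without *uz1* array numbers 1 and 3). In *uz1* 522 passed, against 2270 with the replicate block, 128 with no filter and 60 to 594 with an array left out (60, 62 and 96 without *uz1* array numbers 1, 2 and 3). In the difference 24 passed, against 94 with the replicate block, 0 with slide or scan as a fixed block, 549 with scan as a random block, 1 with no filter, 7 with normexp and loess and 0 to 18 with an array left out (0 without *uz1* array number 1 or 3 or *ok165* array number 3, and 6 and 5 without *ok165* and *uz1* array number 2). Beyond the values given with the results, the block changed no other call of a named gene.

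Signs turned only in values that were not called, none of which passed after turning. With scan as a random block the difference between the strains was -0.14 for *ets-4* and the *rege-1* ratio in *ok165* was 0.12. With scan as a fixed block the difference was -0.20 for *ets-4* and 0.0347 for *lin-1*. With median-centred signals the *ets-4* difference was -0.0105, and ratios in *ok165* were 0.0596 for *lin-1*, 0.0695 for *rege-1* and 0.0074 for *svh-1*, and in *uz1* 0.0246 for *ast-1* and 0.0258 for *glr-8*. With normexp and loess *rege-1* was 0.0311 in *ok165*. The other probe gave 0.0171 for *ast-1* in *uz1* and a difference of -0.29 for *ilys-5*.

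With an array left out, values in *ok165* ran from -0.30 to 0.17 for *ets-5*, -0.21 to 0.22 for *ets-10*, -0.18 to 0.17 for *lin-1*, -0.14 to 0.35 for *cdf-1* and -0.36 to 0.33 for *rege-1*. In *uz1* they ran from -0.0923 to 0.44 for *ets-5*, -0.14 to 0.54 for *ets-9*, -0.20 to 0.41 for *ets-10*, -0.29 to 0.0834 for *lin-1*, -0.17 to 0.16 for *ast-1*, -0.25 to 0.10 for *glr-8*, -0.70 to 0.0187 for *rege-1* and -0.0756 to 0.26 for *svh-2*. The difference between the strains ran from -0.27 to 0.16 for *ets-4*, -1.01 to 0.12 for *ets-9*, -0.25 to 0.37 for *ets-10*, -0.29 to 0.11 for *lin-1*, -0.31 to 0.0163 for *ast-1*, -0.62 to 0.26 for F22A3.4, -0.69 to 0.0398 for *rege-1* and -0.20 to 0.14 for *svh-2*. *ets-7* and *ets-8* were too close to background to be tested, and the Cy3 signal was well above background on 1 array for *ets-5* and on 2 for *ets-9*.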

Other observations

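Outside the set of symbols, 2 more probes carried a description naming an ETS domain, *svh-5* (C33A11.4) and F57A8.1, and they were picked after the files were read. *svh-5* had ratios of 0.00, -0.59 and 0.02 in *ok165* and -0.20, -0.42 and -0.07 in *uz1*. F57A8.1 had ratios of -0.08, -0.29 and -0.12 in *ok165* and -0.62, -0.56 and -0.08 in *uz1*, all below 0. Neither passed the limma test, with adjusted p of 0.816 and 0.523 for *svh-5* and 0.826 and 0.224 for F57A8.1.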
